A study of Homo sapiens with 12 samples.

Results

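Untreated cells of the lung cancer lines HCC4006 and HCC827 were compared with each other. The libraries were chosen by their labels, as the DMSO libraries of these lines, and make up 4 of the 12 libraries of the series, 2 for each line. The series measured RNA by stranded mRNA sequencing in 3 established human lung cancer lines with a mutant EGFR gene, HCC4006, HCC827 and PC9. Control cells of all lines received the solvent DMSO for 24 hours. Dormant cells received 100 nM osimertinib, an EGFR inhibitor, together with 30 nM trametinib, a MEK inhibitor, for 2 weeks. Each line is 1 cell population, and the labels name plates in duplicate without saying that they were grown separately. P-values therefore measure only the spread between these samples, and a difference between the lines cannot be told apart from a difference between their plates or library preparations.

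EGFR is a receptor tyrosine kinase that passes growth signals from ligands such as amphiregulin and epiregulin through RAS, RAF, MEK and ERK to the nucleus. Lung adenocarcinomas with an activating EGFR mutation depend on this signal, and HCC827 and HCC4006 both carry an activating deletion in the kinase domain. Lines of this kind differ in how far they have moved from an epithelial state, with cell junctions and keratins, towards a mesenchymal state, with vimentin, matrix proteins and the receptor AXL. HCC827 is known from other work to carry extra copies of EGFR. Copy number was not measured here.

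Values are FPKM, fragment numbers divided by gene length and by the size of the library, as deposited. No counts were used, so sequencing depth is unknown. Differences are HCC4006 minus HCC827 on the scale of log2(FPKM + 1), which understates the change of genes with low values, and each is given with its SE. A gene was called where limma gave a Benjamini-Hochberg adjusted p under 0.05 over the 14699 genes tested. The second HCC827 DMSO library stood apart. Across tested genes, which are not independent replicates, it correlated with the first at a Pearson r of 0.909, against 0.979 for the HCC4006 DMSO pair. The first HCC827 library correlated about as well with the HCC4006 DMSO libraries, at 0.909 and 0.900, as with its own replicate. Between both HCC827 libraries 24.84% of genes differed by more than 1 log2 unit, against 6.86% for HCC4006. Relative to the first HCC827 library, the values of the second were higher in GC-poor genes and lower in GC-rich ones. The median difference was -0.342 in the genes of lowest and 0.693 in those of highest GC content, taken as the end groups of 5 equal ones (first minus second). The second HCC4006 dormant library also stood apart, at an r of 0.654 with its replicate. It enters the comparison of untreated cells only through the shared estimate of the spread and the choice of tested genes. Both are called doubted libraries here, and the main counts are given without them too. Leave-one-out fits are the 12 fits that each lacked 1 library, while the tested genes were still chosen on all 12.

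Between untreated HCC4006 and HCC827, 788 of 14699 genes were called, which is 5.36%. Of these, 517 were higher in HCC4006 (3.52%) and 271 lower (1.84%), and 512 of the higher and 262 of the lower differed by at least 1 log2 unit. All 788 had both libraries of HCC4006 on 1 side of both libraries of HCC827. An unadjusted p under 0.05 by limma was found for 2772 of the 14699 genes. List counts given by unadjusted p have this share as background. Over all tested genes the median was 0.22, and the share of calls that were higher in HCC4006, 65.6%, depended on the scaling. It was 51.9% after median-of-ratios scaling, 52.2% after quantile normalization and 53.2% after removal of trends with GC content and gene length, where the median difference was -0.02, -0.02 and -0.06. A fit of the 4 compared libraries alone called 832 genes, 533 of the 788 among them. With both HCC4006 dormant libraries left out, 3277 were called, all 788 among them. That group raises the shared estimate of the spread, so calls kept without both doubted libraries are no sign of stability. List counts given without both doubted libraries have as background the calls over all 14699 genes in that fit, given next. Without both doubted libraries, 2893 genes were called and 785 of the 788 were among them. Without the second HCC827 DMSO library alone, 331 were called.

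The largest difference was that of CRIP1, a small LIM-domain protein, which stood at 694 and 452 FPKM in the HCC4006 libraries and was listed at 0 in both HCC827 libraries. CEACAM6, a cell adhesion protein on the surface of epithelial tumour cells, stood at 2078 and 2691 FPKM in HCC4006 and at 7.93 and 5.38 in HCC827 (difference 8.29 ± 0.46, adjusted p = 4.25e-05 by limma). S100A2, a calcium-binding protein, was at 6388 and 4777 FPKM against 35.7 and 64 (6.82 ± 0.48, adjusted p = 7.05e-05). In each of these genes the lower HCC4006 library lay far above the higher HCC827 library. At the other end was NNMT, the enzyme that methylates nicotinamide, at 0.565 and 0.4 FPKM in HCC4006 and 93.3 and 100.2 in HCC827 (-6.04 ± 0.49, adjusted p = 0.000134). The keratin-associated protein gene KRTAP2-3 was listed at 0 in both HCC4006 libraries and stood at 69.2 and 19.1 FPKM in HCC827. BCL2A1, an anti-apoptotic relative of BCL2, was at 0 and 0.13 FPKM in HCC4006 and 14.9 and 50.2 in HCC827 (-4.75 ± 0.46, adjusted p = 0.00044). The other genes at these ends include regulators of the cell cycle and neighbours on chromosomes 7, 8, 11 and 12, described by group.

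**Figure D1:**
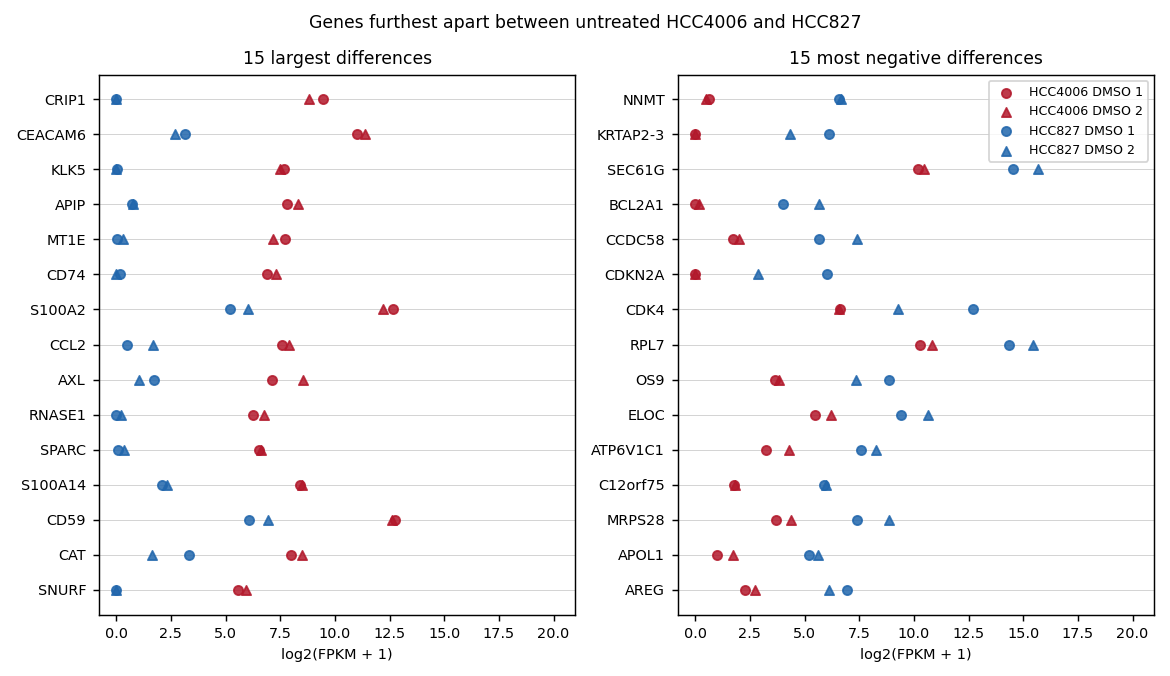
Log2(FPKM + 1) on the x axis of the 15 called protein-coding genes with the largest difference (left) and the 15 with the most negative difference (right), with 1 point per untreated library, red for HCC4006, blue for HCC827, circles for the first and triangles for the second library. The 30 genes were chosen among those in which the libraries of the lines do not overlap. The libraries of HCC827 lie further from each other than those of HCC4006 in genes such as CDK4 and CDKN2A.

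Both lines expressed the markers of epithelial cells. KRT19, a keratin of simple epithelia, stood at 2446 and 2533 FPKM in HCC4006 and at 3155 and 237 in HCC827. EPCAM, an epithelial adhesion protein, was at 194 and 286 FPKM in HCC4006 and 234 and 69.2 in HCC827, and CDH1, E-cadherin, at 38.4 and 83.4 against 85.5 and 41.8. The lines overlapped for EPCAM, CDH1 and KRT19, and the first HCC827 library was the higher of its pair each time. NKX2-1, the lung lineage factor, was low in both lines, at 1.34 and 2.77 FPKM in HCC4006 and 2.1 and 2.21 in HCC827 (-0.09 ± 0.33, adjusted p = 0.941). NAPSA, the aspartic protease napsin A of alveolar cells, was at 8.8 and 7.5 FPKM against 72.1 and 11, and SFTPB, a surfactant protein, was at most 2.12 FPKM in any of the 4 libraries.

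Of 24 epithelial regulators and surface proteins tested, 2 were called and both were higher in HCC4006. RAB25, a GTPase of epithelial vesicle recycling, stood at 77.4 and 83.2 FPKM against 2.07 and 1.32 (4.93 ± 0.78, adjusted p = 0.0049). EHF, an epithelial ETS factor, was at 16.8 and 30 FPKM against 0.675 and 0.62 (3.83 ± 0.49, adjusted p = 0.00159). The median difference of the list was 0.67, beside 0.22 for all tested genes, and without the second HCC827 library it was 0.20 beside 0.12. With GC and length trends removed it was 0.08, with 2 called higher and 2 lower, and without both doubted libraries 4 were higher and 2 lower. RAB25 lost its call without the second HCC827 or the second HCC4006 DMSO library, with an adjusted p of at most 0.0602. Of 16 genes of tight junctions, CLDN1 and CLDN10, both claudins that seal the space between cells, were called higher in HCC4006. CLDN1 held in 2 of the 12 leave-one-out fits, with an adjusted p of up to 0.182. CLDN10 was at 8.38 and 17.6 FPKM against 0.055 and 0. None of 16 keratins was called by limma, and 4 had an unadjusted p under 0.05, of which 3 were higher in HCC4006. Among keratins 3 were called higher and 2 lower without both doubted libraries. Of 15 genes of the alveolar and airway lineage, 1 was called, SCGB3A1, a secretoglobin of airway cells, at 5.54 and 6.59 FPKM in HCC4006 and listed at 0 in both HCC827 libraries. SCGB3A1 was also at 0 in every PC9 library and passed the filter only through untreated HCC4006, which fixed its direction.

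Mesenchymal genes were higher in HCC4006. Of 18 factors and markers tested, 10 were called, all higher in HCC4006, and in 17 of the 18 both HCC4006 libraries lay above both HCC827 libraries, which held for 35.3% of all tested genes. The median difference was 2.34. VIM, vimentin, stood at 217 and 184 FPKM in HCC4006 and at 25.9 and 7.23 in HCC827 (3.75 ± 0.57, adjusted p = 0.00396). SPARC, a matrix glycoprotein, was at 89.9 and 96.4 FPKM against 0.045 and 0.29 (6.34 ± 0.79, adjusted p = 0.00135). These values did not overlap between the lines. AXL, a receptor tyrosine kinase linked to resistance to EGFR inhibitors, was at 140.5 and 366 FPKM in HCC4006 and 2.27 and 1.07 in HCC827 (6.45 ± 1.32, adjusted p = 0.0203). The zinc-finger repressor ZEB1 was at most 0.205 FPKM in any of the 4 libraries (-0.06 ± 0.22, adjusted p = 0.93). Without both doubted libraries 15 of the 18 were called higher and none lower. AXL lost its call when any 1 of the 4 compared libraries was left out, with an adjusted p of up to 0.203, while VIM, SPARC and DKK1 kept theirs when any 1 of the 12 was left out. The summed FPKM of 8 fibroblast markers was 1.0 and 1.56 in HCC827 and 2.73 and 3.5 in HCC4006, with COL3A1 and PDGFRB at 0 in all 4 libraries. Of those markers 3 were tested, and THY1, a surface glycoprotein, was called higher in HCC4006, at 1.01 and 1.56 FPKM against 0 and 0. It passed the filter only through HCC4006, which fixed its direction. THY1 held in 2 of the 12 leave-one-out fits, with an adjusted p of up to 0.304, and was not called with GC and length trends removed (0.16). Of 12 blood and endothelial markers, PTPRC, CD3E, HBB and CLDN5 were listed at 0 in all 4 libraries. CD68 and ESAM passed the filter and were not called. The summed FPKM of the 12 was 10.1 and 13.65 in HCC4006 and 23.4 and 5.34 in HCC827.

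Of 20 matrix proteases, inhibitors and genes of plasminogen activation, 7 were called higher in HCC4006 and none lower, with a median of 1.42. MMP7, the protease matrilysin, stood at 23.8 and 42.7 FPKM in HCC4006 and at 0.34 and 0.05 in HCC827 (4.80 ± 0.42, adjusted p = 0.000216). MMP2, a gelatinase, was at 10.7 and 13.7 FPKM against 0.13 and 0.07 (3.58 ± 0.48, adjusted p = 0.00205). PLAUR, the urokinase receptor, was at 242 and 274 FPKM against 50.7 and 14.7 (3.18 ± 0.80, adjusted p = 0.0498). In all of these genes the HCC827 values were the lower ones. Of 14 collagens, 3 were called, all higher in HCC4006, with a median over the 14 of 0.71. COL4A1, a chain of basement membrane collagen, was at 36 and 33.5 FPKM against 0.355 and 0.18 (4.82 ± 0.42, adjusted p = 0.000216). Its partner chain gene COL4A2 was at 25.5 and 14.9 FPKM against 1.76 and 0.32 and was not called (adjusted p = 0.0562). Of 19 laminins and integrins, ITGB4 and ITGB5, both integrin beta chains, were called higher. Of the 20 proteases and inhibitors 9, and of the 14 collagens 6, were called higher and none lower without both doubted libraries. PLAUR, COL7A1 and ITGB4 held in 3, 2 and 9 of the 12 leave-one-out fits, with an adjusted p of 0.324, 0.21 and 0.139 without the second HCC827 library.

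Among kallikreins, secreted serine proteases that lie together on chromosome 19, 3 of 5 tested were called, all higher in HCC4006. KLK5 stood at 199.995 and 181 FPKM in HCC4006 and at 0.015 and 0 in HCC827 (7.57 ± 0.88, adjusted p = 0.00102). KLK10 was at 20.8 and 39 FPKM against 0.44 and 0.725 (4.23 ± 0.56, adjusted p = 0.00201), and KLK6 at 198 and 231 against 10.4 and 4.34 (4.79 ± 1.19, adjusted p = 0.0485). KLK6 held in 2 of the 12 leave-one-out fits, with an adjusted p of up to 0.302. CEACAM5, the carcinoembryonic antigen, was called as was CEACAM6, at 12.4 and 18.3 FPKM in HCC4006 and 0.61 and 0.1 in HCC827 (3.60 ± 0.32, adjusted p = 0.000242), and CEACAM1 was not. MUC20, a membrane mucin, was the single called gene of 5 mucins, at 14 and 17.8 FPKM against 0.12 and 0.02.

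EGFR and 3 of its family's ligand genes were lower in HCC4006. Of 13 ERBB receptors, ligands and direct regulators, 4 were called and all were lower in HCC4006, with a median over the 13 of -0.96. EGFR stood at 9.33 and 14.1 FPKM in HCC4006 and at 80.9 and 83.8 in HCC827 (-2.74 ± 0.57, adjusted p = 0.0222). AREG, amphiregulin, was at 3.89 and 5.63 FPKM against 120.3 and 68 (-4.01 ± 0.42, adjusted p = 0.000586). EREG, epiregulin, was at 0.08 and 0.055 FPKM against 13.1 and 13.3 (-3.74 ± 0.24, adjusted p = 4.25e-05). It passed the filter only through HCC827, which fixed its direction. The lines did not overlap for any of these genes, and the HCC827 libraries were close to each other for EGFR and EREG. NRG1, neuregulin, a ligand of ERBB3 and ERBB4, was at 1.72 and 2.38 FPKM against 5.95 and 9.15 (-1.47 ± 0.33, adjusted p = 0.0332). The receptor genes ERBB2 (-0.37 ± 0.53, adjusted p = 0.786) and ERBB3 (0.20 ± 0.41, adjusted p = 0.863) were not called. TGFA, another EGFR ligand, had the opposite sign, at 4.81 and 6.55 FPKM against 1.42 and 0.585, and was not called (adjusted p = 0.06). Without both doubted libraries 7 of the 13 were called lower and 1 higher. EGFR lost its call without any 1 of the 4 compared libraries or either PC9 DMSO library, with an adjusted p of up to 0.146, while its difference without the second HCC827 library was -2.71. NRG1 held in 3 of the 12 leave-one-out fits, with an adjusted p of up to 0.174, and AREG and EREG in all 12.

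Among 23 other receptor tyrosine kinases and their ligands, 5 were called, all higher in HCC4006, with a median of 0.97. With AXL these were its ligand gene GAS6, at 12 and 11.8 FPKM against 0.05 and 0 (3.65 ± 0.69, adjusted p = 0.0141), the collagen receptor DDR1, the fibroblast growth factor receptor FGFR2 and the stem cell factor receptor KIT, which was at 0.65 and 0.625 FPKM in HCC4006. None of the 23 was called without the second HCC827 library, and 8 were called higher and 1 lower without both doubted libraries. GAS6 lost its call when any 1 of the 4 compared libraries was left out, with an adjusted p of up to 0.121. DDR1 held in 3 and FGFR2 in 9 of the 12 leave-one-out fits, with an adjusted p of up to 0.158 and 0.0731, and FGFR2 was not called with GC and length trends removed (0.289). MET, whose amplification can bypass EGFR, was at 9.24 and 18.5 FPKM against 8.38 and 9.16 (0.53 ± 0.48, adjusted p = 0.619). Of 19 genes of ERK output and feedback, 4 were called higher in HCC4006 and 1 lower, with a median of 0.46. DUSP6, the phosphatase that removes ERK's activating phosphates, stood at 78.4 and 98.7 FPKM in HCC4006 and at 13.1 and 2.99 in HCC827 (3.57 ± 0.71, adjusted p = 0.0174). IER3, an immediate early gene, was at 41.2 and 33.2 FPKM against 2.18 and 1.25 (3.83 ± 0.62, adjusted p = 0.00585). CCND1, cyclin D1, was at 88.1 and 100.2 FPKM against 24.5 and 4.57. MYC, the growth-promoting transcription factor, was the called gene of this list that was lower in HCC4006, at 5.2 and 6.18 FPKM against 57.9 and 21.1 (-2.44 ± 0.50, adjusted p = 0.0214). For DUSP6 and CCND1 the second HCC827 library was far below the first, and without it the differences were 2.66 and 1.90 with adjusted p-values of 0.15 and 0.11. IER3 held in 9 of the 12 leave-one-out fits, with an adjusted p of up to 0.0604, and CCND1 in 3, with one of up to 0.194. Without the second HCC827 library none of the 19 was called higher and 1 lower, and without both doubted libraries 8 were higher and 1 lower. MYC lost its call without the first HCC827 DMSO library, either HCC4006 DMSO library or any 1 of 4 libraries of other groups, with an adjusted p of up to 0.127.

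Of 24 YAP and TEAD targets, 3 were called higher in HCC4006 and none lower, with a median of 0.24, close to that of all tested genes. They were AXL, the 5'-nucleotidase gene NT5E, at 92.9 and 75.2 FPKM against 19.2 and 6.76, and the matricellular gene CTGF, at 3.27 and 4.61 against 0.18 and 0.18. CTGF held in 2 of the 12 leave-one-out fits, with an adjusted p of up to 0.289, and NT5E in 10, with one of up to 0.0758. Of the 24, 5 were called higher and 3 lower without both doubted libraries. YAP1 itself was at 0.95 and 2.04 FPKM against 0.86 and 2.24 (-0.01 ± 0.85, adjusted p = 1), and its relative WWTR1 at 22.8 and 22.1 against 38 and 40.8 (-0.78 ± 0.71, adjusted p = 0.62). The study's title concerns YAP and cell death genes in dormant cells. In untreated cells, 2 of 13 BCL2 family genes were called. BCL2A1 was lower in HCC4006, and BID, a pro-apoptotic member cleaved by caspases, was higher, at 32.1 and 44.6 FPKM against 1.33 and 0.61 (4.33 ± 0.71, adjusted p = 0.00585). BCL2L11, the pro-apoptotic protein BIM that mediates death after EGFR inhibition, was at 0.505 and 0.925 FPKM in HCC4006 and 3.44 and 2.75 in HCC827. Its lines did not overlap, and it was not called (-1.26 ± 0.34, adjusted p = 0.0671). BID had an adjusted p of 0.0672 without the second HCC827 library.

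**Figure D2:**
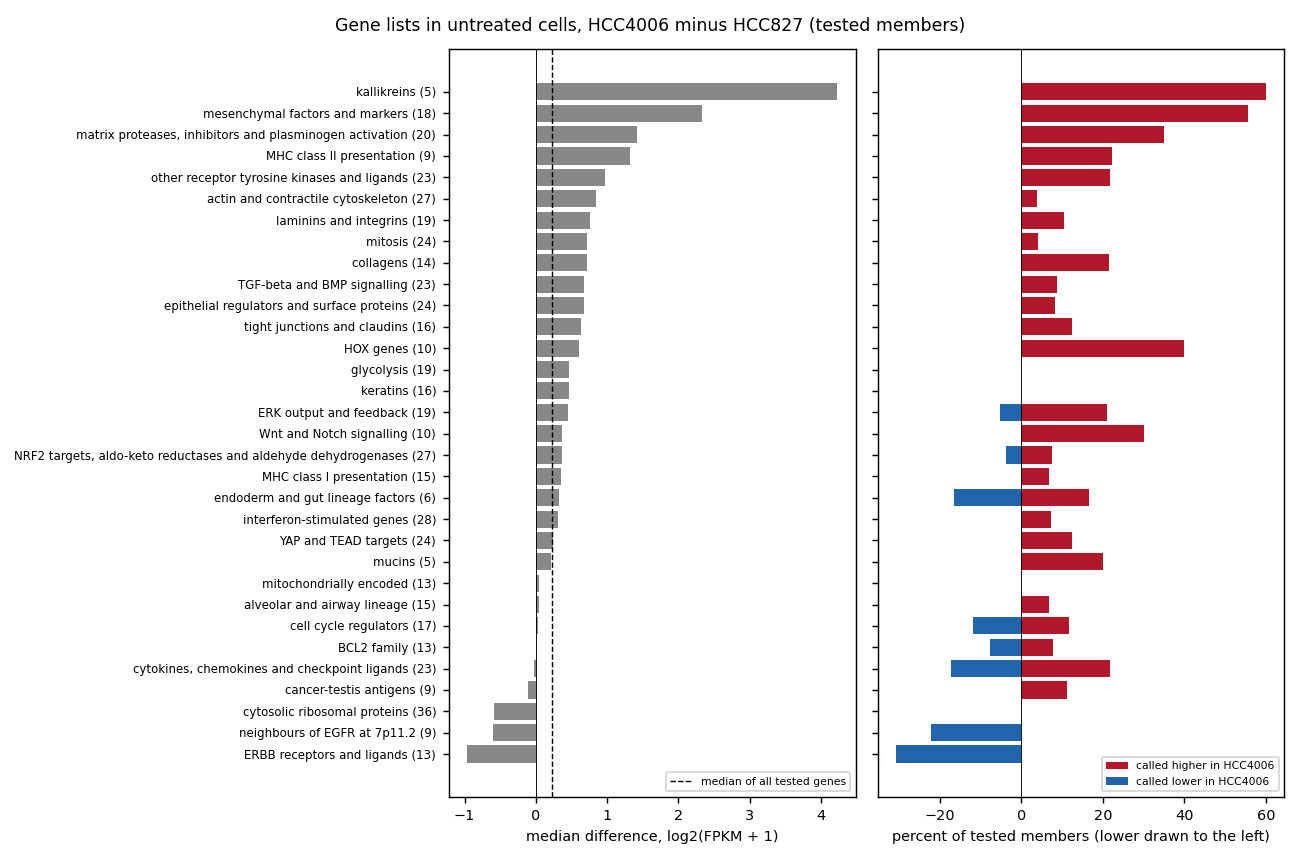
For each gene list with at least 5 tested members (number in brackets), the left panel shows the median difference, HCC4006 minus HCC827 in log2(FPKM + 1), with the median of all tested genes dashed at 0.22, and the right panel the percent of tested members called higher (red) or lower (blue, drawn to the left). Kallikreins (4.23) and mesenchymal genes (2.34) have the highest medians of these lists, and ERBB receptors and ligands (-0.96) the lowest.

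Genes that lie next to each other on a chromosome differed together at several places. Protein-coding genes that were tested were put in the order of the GENCODE annotation, and the median difference was taken over each of 10903 windows of 15 neighbours. The windows named were chosen after their values were seen, so their counts describe them and carry no test. The middle 90% of windows had a median between -0.288 and 1.09. The highest median, 3.83, was that of the run from QSER1 to CD44 on chromosome 11, in which all 15 genes were higher in HCC4006 and 12 were called. The last 10 of them, from CD59 to CD44, were all called.

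In that run, CD44, the hyaluronan receptor, stood at 5370.5 and 4708 FPKM in HCC4006 and at 182 and 88.7 in HCC827 (5.29 ± 0.49, adjusted p = 0.000291). CD59, which shields cells from complement, was at 6816 and 6211 FPKM against 66.2 and 120.4 (6.17 ± 0.61, adjusted p = 0.000444). APIP, an enzyme of methionine salvage, was at 219.8 and 321 FPKM against 0.625 and 0.7 (7.33 ± 0.45, adjusted p = 4.25e-05). CAT, catalase, was at 252 and 357 FPKM against 8.97 and 2.1 (5.76 ± 0.56, adjusted p = 0.00044). These proteins have unrelated functions, and so have others of the run such as CAPRIN1, an RNA-binding protein, PDHX, a subunit of pyruvate dehydrogenase, and NAT10, an RNA acetyltransferase. CAPRIN1 was at 391 and 487 FPKM against 22.2 and 14.3, PDHX at 181 and 246 against 12.8 and 6.39, and NAT10 at 64.2 and 64.8 against 7.71 and 4.41. Against HCC827, the untreated PC9 libraries had a median difference of 0.28 over the same 15 genes. In dormant cells, which share no library with untreated cells, the median line difference was 4.37 and all 15 were called higher. APIP, CAT, CD59 and EHF of this run kept their call when any 1 of the 12 libraries was left out.

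On chromosome 8, the run from RPL7 to MRPS28 had the lowest median of all windows, -1.57, with 7 of 15 genes called, all lower in HCC4006. RPL7, a protein of the large ribosomal subunit, stood at 1234 and 1796 FPKM in HCC4006 and at 21066 and 45266 in HCC827 (-4.37 ± 0.53, adjusted p = 0.00124). ELOC, elongin C, a subunit of ubiquitin ligases, was at 44.1 and 72.4 FPKM against 683 and 1599 (-4.18 ± 0.68, adjusted p = 0.00585). MRPS28, a mitochondrial ribosomal protein, was at 11.9 and 19.6 FPKM against 165 and 461 (-4.08 ± 0.57, adjusted p = 0.00267). The second HCC827 library was the higher of its pair for all of these genes. Over the whole chromosome 8, 23 of 374 tested protein-coding genes were called lower in HCC4006 and 4 higher, while on chromosome 11 53 of 642 were called higher and 5 lower. ELOC lost its call without the second HCC827 library (adjusted p = 0.0595) and without the first HCC4006 DMSO library.

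On chromosome 7, EGFR and some of its neighbours were lower in HCC4006. Of 11 genes from SEC61G to CHCHD2, 10 had a negative difference and 3 were called. SEC61G, a subunit of the protein channel of the endoplasmic reticulum, stood at 1161 and 1432 FPKM in HCC4006 and at 23554 and 52330.0 in HCC827 (-4.77 ± 0.86, adjusted p = 0.0103). MRPS17, a mitochondrial ribosomal protein, was at 40.5 and 52.7 FPKM against 328 and 782 (-3.43 ± 0.52, adjusted p = 0.00423). LANCL2 (-2.19 ± 0.69, adjusted p = 0.11) and VOPP1 (-2.16 ± 0.62, adjusted p = 0.0794), which lie between these, had the same sign and were not called. PSPH, CCT6A, SUMF2 and CHCHD2 overlapped between the lines. NIPSNAP2, which lies between EGFR and MRPS17, had the opposite sign, at 52.2 and 97.8 FPKM against 47.6 and 25.1 (1.03 ± 0.58, adjusted p = 0.387). It was not in the gene list under this symbol. Of 9 neighbours of EGFR in the gene list, 2 were called in the main comparison and 8 without both doubted libraries, all lower in HCC4006. SEC61G held in 9 of the 12 leave-one-out fits, with an adjusted p of 0.109 without the second HCC827 library.

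On chromosome 12, CDK4, the kinase that cyclin D activates to start the cell cycle, stood at 97.4 and 95.4 FPKM in HCC4006 and at 6698.5 and 627 in HCC827 (-4.40 ± 0.91, adjusted p = 0.0212). OS9, a lectin of protein quality control in the endoplasmic reticulum, was at 11.4 and 13.1 FPKM against 457 and 160.3 (-4.36 ± 0.95, adjusted p = 0.0279). PIP4K2C, a lipid kinase, was at 18.6 and 24.6 FPKM against 1052 and 105, and TSPAN31, a tetraspanin, at 8.03 and 11.4 against 86.3 and 71.2. The last 2 were not called (adjusted p = 0.0872 and 0.0606), although both libraries of HCC827 lay above both of HCC4006. In dormant cells CDK4 was at 97.8 and 47.8 FPKM in HCC4006 and 5918 and 6404 in HCC827, and all 4 genes were called lower in HCC4006. CDK4 lost its call without either HCC4006 DMSO library, with an adjusted p of up to 0.167, and its difference was -6.10 without the second HCC827 library (adjusted p = 0.00155). OS9 lost its call without 10 of the 12 libraries, 1 at a time, with an adjusted p of up to 0.182.

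**Figure D3:**
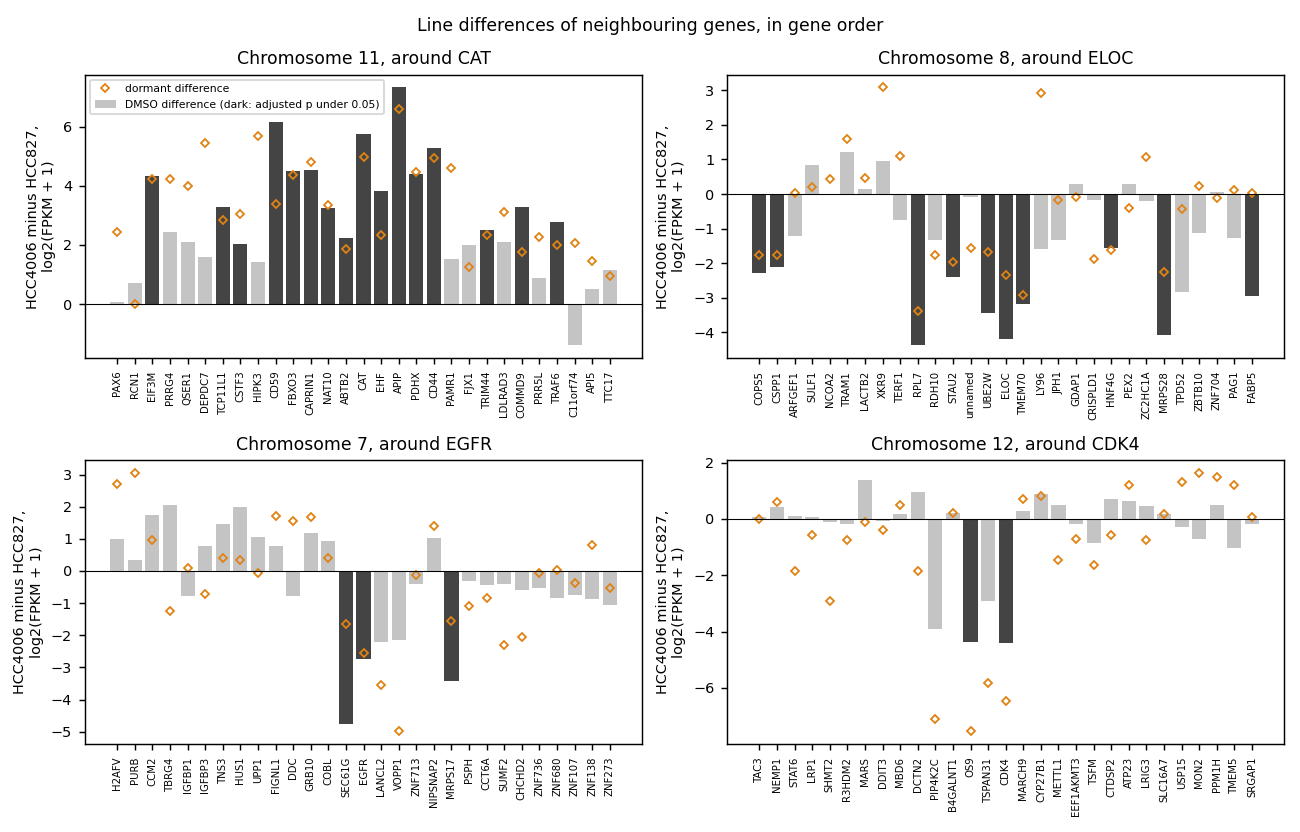
Line differences, HCC4006 minus HCC827 in log2(FPKM + 1), of up to 14 tested protein-coding genes on each side of CAT, ELOC, EGFR and CDK4, in gene order and not to scale, with bars for untreated cells (dark where the adjusted p was under 0.05) and open diamonds for dormant cells. The genes from CD59 to CD44 are all higher in HCC4006 in both states, and the stretches of lower genes around EGFR and CDK4 are short, and to the right of that around EGFR the next 5 genes, from ZNF736 to ZNF273, lie between -0.52 and -1.05.

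Of 17 cell cycle regulators, 2 were called higher and 2 lower in HCC4006, with a median of 0.02. CCND1 and CDKN1A, the inhibitor p21, were higher, and CDK4 and CDKN2A were lower. CDKN2A, which encodes the CDK4 inhibitor p16, was listed at 0 in both HCC4006 libraries and stood at 63.6 and 6.34 FPKM in HCC827. It was listed at 0 in both dormant HCC4006 libraries too, and stood at 147 and 122 FPKM in dormant HCC827. Its call was lost without either HCC4006 DMSO library, with an adjusted p of up to 0.113, and that of CDKN1A in 3 leave-one-out fits, with one of up to 0.122. Of 24 genes of mitosis, PLK1, a mitotic kinase, was the single call, at 210.0 and 209.6 FPKM against 35.5 and 2.43. It held in 3 of the 12 leave-one-out fits, with an adjusted p of up to 0.225, and 7 of the 24 were called higher and 1 lower once both doubted libraries were left out.

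Chemokines divided the lines in both directions. Of 23 cytokines, chemokines and checkpoint ligands, 5 were called higher and 4 lower in HCC4006, with a median of -0.03. CCL2, which attracts monocytes, stood at 191 and 235 FPKM in HCC4006 and at 0.395 and 2.19 in HCC827 (6.66 ± 0.47, adjusted p = 7.05e-05). CD274, the checkpoint ligand PD-L1, was at 33.6 and 36.5 FPKM against 8.34 and 8.48 (1.94 ± 0.41, adjusted p = 0.0223). TNFSF10, the death ligand TRAIL, was at 8.06 and 16.5 FPKM against 0.21 and 0.19 (3.39 ± 0.52, adjusted p = 0.00424). The 4 that were lower in HCC4006 were CXCL1, CXCL2, CXCL3 and CXCL5, which attract neutrophils and lie in 1 cluster on chromosome 4. CXCL2 was at 0.415 and 0.935 FPKM in HCC4006 and 7.12 and 4.89 in HCC827 (-2.06 ± 0.31, adjusted p = 0.00388). CXCL1 was at 0.23 and 0.275 FPKM against 4.39 and 3.21, CXCL5 at 0.02 and 0.1 against 2.85 and 2.24, and CXCL3 was listed at 0 in both HCC4006 libraries and stood at 0.78 and 0.755 in HCC827. The lines did not overlap for any of these chemokines, and the levels of all 4 were low in HCC827 as well. Their neighbours CXCL8 (adjusted p = 0.211) and CXCL6 (adjusted p = 0.596) were not called, and the ligand genes EREG and AREG lie in the same stretch. Of its 11 genes from CXCL8 to BTC, all had a negative difference and 6 were called. CXCL1, CXCL2, CXCL3, CXCL5, CXCL6 and EREG passed the filter only through HCC827, which favoured a negative difference. Of the called genes of the stretch, only AREG passed it through other lines too. With both doubted libraries left out, 6 of the 23 cytokines and ligands were called higher and 6 lower, and CD274 held in 4 of the 12 leave-one-out fits, with an adjusted p of up to 0.154.

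The promoters of these CXCL genes are shown because the 4 genes differed in the same direction and their start regions share letters. The filter favoured that direction, since all 4 passed it only through HCC827. The 250 bases before each start site are given 5′ to 3′ on the gene's own strand, from RefSeq on GRCh38.p14, and capitals mark the 11 letters GGGAATTTCCC, the longest run that all 4 share, which holds a form of the κB motif to which factors of the NF-κB family bind. CXCL1 lies at chr4:73869143-73869392 on the + strand, CXCL2 at chr4:74099196-74099445, CXCL3 at chr4:74038690-74038939 and CXCL5 at chr4:73998678-73998927, all on the - strand.
CXCL1: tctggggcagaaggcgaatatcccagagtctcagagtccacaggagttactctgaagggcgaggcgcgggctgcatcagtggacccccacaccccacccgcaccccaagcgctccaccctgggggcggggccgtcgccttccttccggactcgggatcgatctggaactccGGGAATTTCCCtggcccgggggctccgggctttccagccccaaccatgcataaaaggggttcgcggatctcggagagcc
CXCL2: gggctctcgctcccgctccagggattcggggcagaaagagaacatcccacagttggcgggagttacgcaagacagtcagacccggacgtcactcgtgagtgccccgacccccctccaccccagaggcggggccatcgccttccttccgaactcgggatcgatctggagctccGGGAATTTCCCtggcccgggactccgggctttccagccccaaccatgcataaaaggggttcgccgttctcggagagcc
CXCL3: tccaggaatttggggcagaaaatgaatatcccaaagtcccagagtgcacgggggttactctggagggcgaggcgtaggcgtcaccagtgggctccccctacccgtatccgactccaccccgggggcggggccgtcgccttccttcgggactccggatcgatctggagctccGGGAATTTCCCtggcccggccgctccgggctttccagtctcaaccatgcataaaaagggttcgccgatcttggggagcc
CXCL5: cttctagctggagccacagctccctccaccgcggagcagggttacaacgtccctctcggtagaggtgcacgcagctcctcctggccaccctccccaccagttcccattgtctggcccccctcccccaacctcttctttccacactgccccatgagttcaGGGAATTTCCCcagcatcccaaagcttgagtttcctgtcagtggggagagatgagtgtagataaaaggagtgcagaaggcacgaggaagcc
These letters end 68, 67, 68 and 80 bases before the start site. They were searched on both strands, GGGAATTTCCC and its reverse complement GGGAAATTCCC, which can overlap in part, and were found in the 250 bases before the start of 27 of 35116 promoters in the table, which is 0.0769%. Of the 11 genes from CXCL8 to BTC, 5 hold them, these 4 and CXCL6, which was not called. Over the last 100 bases, compared without gaps, CXCL1 and CXCL3 are identical at 90% of positions, CXCL1 and CXCL2 at 73.0% and CXCL2 and CXCL3 at 67.0%, while CXCL5 shares 23.0% to 27.0% with each. The letters were chosen as the longest run that these 4 promoters share, so all 4 hold them by choice. Their rarity among all promoters is therefore no test of enrichment. A match describes the letters only, and binding was not measured.

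In antigen presentation, CD74, the invariant chain of MHC class II, stood at 117 and 157 FPKM in HCC4006 and at 0.135 and 0 in HCC827 (adjusted p = 0.000121). Of 9 class II genes tested, CD74 and HLA-DPA1 were called, both higher in HCC4006, with a median of 1.32, and HLA-DRA, at 3.46 and 4.83 FPKM against 0 and 0, was not (adjusted p = 0.0712). HLA-DPA1 and HLA-DRA passed the filter only through HCC4006, which fixed their direction and raises the median. Without both doubted libraries 5 of the 9 were called, all higher. Of 15 class I genes, 1 was called higher, ERAP2, a peptide-trimming enzyme, which held in 4 of the 12 leave-one-out fits, with an adjusted p of up to 0.25. The median of the class I genes was 0.35, and without both doubted libraries it was -0.67, with 3 called higher and 5 lower. Of 28 interferon-stimulated genes, IFITM3 and OASL were called, with a median over the list of 0.31. IFITM3, a membrane protein that blocks virus entry, was at 404 and 472 FPKM against 64.2 and 69.8. HLA-DPA1, IFITM3 and OASL held in 2, 9 and 10 of the 12 leave-one-out fits, with adjusted p-values of up to 0.312, 0.134 and 0.0737.

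Some patterning genes were higher in HCC4006, and most of those tested were not called. Of 38 HOX genes listed, 10 passed the filter, and 4 of these were called, all higher in HCC4006, with a median of 0.61. HOXD11 stood at 4.93 and 6.79 FPKM and HOXD10 at 1.91 and 3.17, and both were listed at 0 in both HCC827 libraries. Both were also at 0 in every dormant HCC827 and every PC9 library. They passed the filter only through HCC4006, which fixed their direction. Of 35 Wnt and Notch genes listed, 10 were tested, and DKK1, a Wnt antagonist, DKK3 and the stem cell receptor gene LGR5 were called higher. LGR5, too, passed the filter only through HCC4006. DKK1 was at 145 and 146 FPKM against 12.8 and 4.57 (4.06 ± 0.52, adjusted p = 0.00157). Of 23 genes of TGF-beta and BMP signalling, BMP4, a morphogen, and LTBP1, which binds latent TGF-beta, were called higher. BMP4 and LTBP1 had adjusted p-values of 0.0627 and 0.0959 without the second HCC827 library, where 2 HOX genes and none of the 23 were called. With GC and length trends removed the HOX median was 0.18 with 2 called, and the Wnt and Notch median -0.07 with 3 called. Leaving out both doubted libraries, 5 HOX genes and 4 Wnt and Notch genes were called higher, and 8 TGF-beta and BMP genes higher and 2 lower.

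Of 27 NRF2 targets, aldo-keto reductases and aldehyde dehydrogenases, 2 were called higher and 1 lower in HCC4006. ALDH1A3, which makes retinoic acid, stood at 82.8 and 111 FPKM against 10.8 and 7.86 (3.24 ± 0.46, adjusted p = 0.00277), and ALDH3A1 at 23.9 and 34.4 FPKM in HCC4006 and 0 in both HCC827 libraries. The transporter gene ABCC2 was the lower one, at 0.265 and 0.01 FPKM against 1.82 and 1.77, and held in 3 of the 12 leave-one-out fits, with an adjusted p of up to 0.317. Of the 27, 4 were called higher and 4 lower without both doubted libraries. None of 19 glycolysis genes was called by limma, and 4 had an unadjusted p under 0.05, of which 3 were higher. Their median was 0.47, and without both doubted libraries it was -0.31, with 3 called higher and 5 lower. None of 13 mitochondrially encoded genes was called, and 1 had an unadjusted p under 0.05. None of 36 cytosolic ribosomal protein genes was called either. In 22 of those 36 both HCC4006 libraries lay below both HCC827 libraries, which held for 17.1% of all tested genes, 9 had an unadjusted p under 0.05, all lower, and the median was -0.58. Without both doubted libraries 16 of the 36 were called, all lower in HCC4006. RPL7 was not in that list.

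Dormant cells of the same lines gave a comparison that shares no library with untreated cells, although both use 1 estimate of the spread. In dormant cells 2267 genes were called between the lines, 15.4% of those tested. Of the genes called in untreated cells, 739 of 788 had a dormant difference of the same sign, and 466 were called in both states with the same sign, which is 59.1% of the untreated and 20.6% of the dormant calls. NNMT stood at 3.94 and 11.3 FPKM in dormant HCC4006 and at 989 and 1071 in dormant HCC827. SPARC was at 5692 and 753 FPKM against 1.11 and 2.62. EGFR was at 7.07 and 23.6 FPKM against 97.7 and 67.4. For all of these the lines stood in the same order as before treatment. By contrast, 4 genes were called in both states with opposite signs, among them KLK10 and CEACAM5. KLK10 was at 8.1 and 2.36 FPKM in dormant HCC4006 and 36.9 and 30.9 in dormant HCC827.

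The change of the line difference with treatment was tested as an interaction, which called 92 genes, 0.626% of those tested, of which 31 were among the 788. CEACAM6 stood at 45.5 and 23.8 FPKM in dormant HCC4006 and at 39.6 and 34.6 in dormant HCC827, so that its line difference was 8.29 before and -0.16 after treatment (interaction adjusted p = 0.000623). CCL2 was at 574 and 649 FPKM against 119 and 105, with line differences of 6.66 and 2.44 (interaction adjusted p = 0.0255). EREG, which passed the filter only through HCC827, was at 0.065 and 0.045 FPKM against 1.11 and 0.65. Its line differences were -3.74 and -0.82 (interaction adjusted p = 0.00584). The lines were closer to each other after treatment for each of these genes. Treatment differs from control in drug and in duration, which cannot be told apart. The second HCC4006 dormant library enters this test directly, and it called 406 genes without that library, 24 without the second HCC827 DMSO library and 499 without both. The interactions of CEACAM6 and EREG held when any 1 of the 12 libraries was left out, and that of CCL2 held in 4 of those 12 fits, with an adjusted p of up to 0.162.

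**Figure D4:**
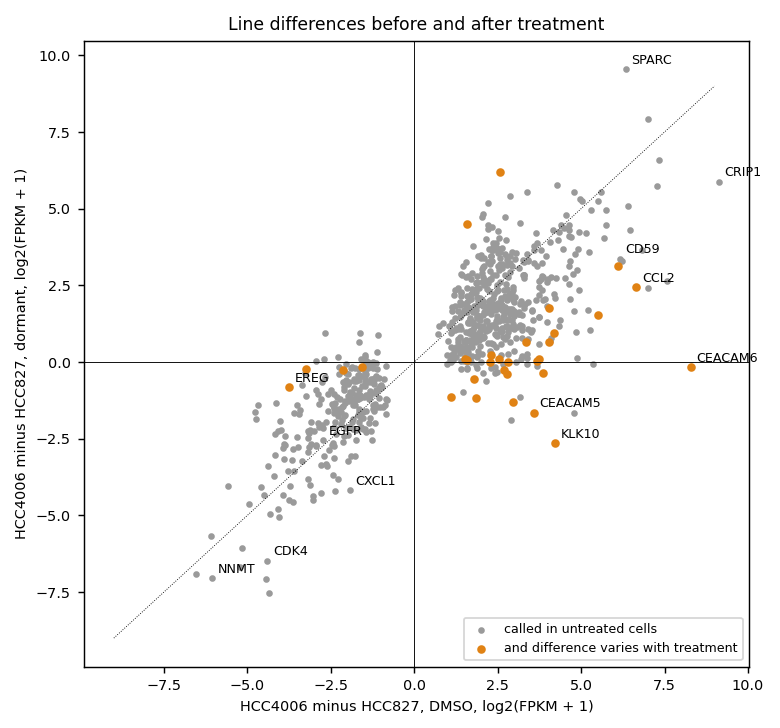
Each point is 1 of the 788 genes called in untreated cells, with its line difference (HCC4006 minus HCC827, log2(FPKM + 1)) in untreated cells on the x axis and in dormant cells on the y axis, orange where the difference varied with treatment (31 genes), and the dotted line marks equal differences. Most points (739) keep their sign, and CEACAM6, CEACAM5 and KLK10 lie at or below 0 on the y axis.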

How the data were processed

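RNA was measured in 12 libraries, 2 for each of 3 cell lines and 2 treatments, grouped by their labels. The authors deposited FPKM values for 57905 genes, rounded to 0.01, with 2 columns per library. Per the submitters' processing notes, the tools named, with no role stated, were Cufflinks 2.2.1, STAR 2.5.1b and DESeq2 1.10.1, and GRCh37 and hg19 were the builds. What distinguishes both columns of a library is not given in the sources used here. They were averaged and counted as 1 library. The FPKM of the compared libraries summed to 884074 to 1159352. Sequencing depth is unknown, so no precision can be given for low values.

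A gene was tested where 2 or more of the 12 libraries reached 1 FPKM. A gene expressed in 1 line alone passes through that line, which fixes the direction of its difference. Log2(FPKM + 1) was fitted in limma 3.58.1 under R 4.3.3 (moderated variances with a trend on mean level) with 1 coefficient per group, 6 residual and 3.8 prior degrees of freedom. Tests were two-sided, with Benjamini-Hochberg adjustment over all genes tested. The procedure was tested on simulated data for this comparison over 14338 genes, in which it found, with the right sign, 3% of 100 genes shifted by 1 log2 unit, 23% at a shift of 2 and 76% at a shift of 4, and 8.1% of its calls were false. A gene that was not called is therefore not shown to be equal. The simulated noise was independent between libraries and had 1 spread per gene for all groups. In the measured libraries, genes more than 1 log2 unit apart between replicates made up 0.57% in PC9 DMSO, 24.84% in HCC827 DMSO and 57.81% in HCC4006 dormant. Replicate differences also followed GC content, so the simulated rates need not hold for this comparison.

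Genes were named by a rule: the 15 largest and 15 most negative differences among called protein-coding genes whose lines did not overlap, up to 4 called members of each of 36 gene lists with the largest difference, and 19 single genes. Other genes named were chosen after their values were seen. The members and lists were chosen with earlier results of these data known. GENCODE 29 gave gene type and order, and tables and figures came from numpy 2.4.6, matplotlib 3.10.9 and pandas 2.3.3 under Python 3.11.15. Alternatives covered pseudocounts, filters, scaling, libraries entering the fit, column choice, array weights, a replicate block, GC content and each library left out in turn. The list genes GBAS, NUPR1L, IL8, CCL5, MAGEA2, CT45A1, CXorf61 and MMP28 are not analysed here under these symbols, and FOXA2 was below the filter. Some genes that the rule names are not reported here, though list counts include them.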

Additional observations from a re-analysis of the deposited data

Results flagged for a closer look

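The line difference varied with treatment, by the interaction term in limma, for 8 genes described here. The change of the difference, dormant minus untreated cells on the log2(FPKM + 1) scale, was -8.46 for CEACAM6, -5.24 for CEACAM5, -6.88 for KLK10, -3.64 for CLDN10 and -2.82 for SCGB3A1. CEACAM6 and CEACAM5, cell adhesion proteins, KLK10, a secreted protease, CLDN10, a claudin, and SCGB3A1, a secretoglobin, were all higher in untreated HCC4006. SCGB3A1 was listed at 0 in all 4 dormant libraries of both lines, and CLDN10 was at most 0.06 FPKM there. The change of SCGB3A1 is therefore its untreated difference with the sign reversed. SCGB3A1 passed the filter only through untreated HCC4006, and EREG only through HCC827. For CCL2 the change was -4.22 and for ITGB5 -4.23, and for EREG, lower in untreated HCC4006, it was 2.91. ITGB5 stood at 39.1 and 58.2 FPKM in untreated HCC4006 against 3.46 and 1.5 in HCC827, and the lines overlapped in dormant cells. CEACAM6, CEACAM5, SCGB3A1, CLDN10, KLK10 and EREG kept this result when any 1 of the 12 libraries was left out, with an adjusted p of at most 0.0489. CCL2 and ITGB5 kept it in 4 and 2 of those 12 fits, with adjusted p-values of up to 0.162 and 0.229, and all 8 held without both doubted libraries. With 2 libraries a group, single libraries were not examined as outliers.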

How the results depend on the processing

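Of the 91 called genes among the 103 named, 46 stayed called when any 1 of the 12 libraries was left out and 45 lost their call in some fit, all 91 stayed called without both doubted libraries and 83 with GC and length trends removed, and none of the 91 changed sign under any of 28 alternatives. A call kept without both doubted libraries is eased by the smaller shared spread of that fit. The counts moved more than the named genes. Genes higher in HCC4006 (517) numbered 1270 with the 6 DMSO libraries alone, 888 with array quality weights, 1821 without both doubted libraries, 2179 without them and with GC and length trends removed, and 2325 with HCC4006 dormant left out. With 1 library left out they ranged from 160 (without the second HCC4006 DMSO library) to 2302 (without the second HCC4006 dormant library). Genes lower (271) numbered 474 and 525 after median-of-ratios scaling and quantile normalization, 546 with the DMSO libraries alone, 490 with GC and length trends removed, 1072 and 2102 without both doubted libraries and with that removal as well, and 952 without HCC4006 dormant, with a range of 105 (without the first HCC4006 DMSO library) to 963 (without the second HCC4006 dormant library) when 1 library was left out.

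Line differences in dormant cells (2267) numbered 1499 with no filter, 1464 with a stricter one, 217 with array weights, 4545 and 5382 without both doubted libraries before and after GC and length removal, and with 1 library left out from 579, lacking the first of dormant HCC827, to 8948, lacking the first of dormant HCC4006. Differences that varied with treatment (92) numbered 37 with a pseudocount of 0.1, 16 with the stricter filter, 5 with array weights, 499 and 814 without both doubted libraries before and after that removal, 50 after removal alone, and with 1 library left out from 20, lacking the first HCC4006 DMSO library, to 7706, lacking the first of dormant HCC4006. A fit that leaves a group with 1 library assumes that it varies like the other groups. The replicate block gave 463 higher and 247 lower genes in untreated cells and 58 that varied with treatment. Same-numbered untreated libraries of both lines deviated from their group means with a correlation of 0.157, and the labels name nothing that they share, so the pairing is by number only. Removal of GC and length trends and leaving out HCC4006 dormant were chosen after seeing the data. The cause of these shifts was not tested. Low FPKM values with unknown depth limit all statements on genes near 0.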

Other observations

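Several genes were listed at 0 in one line and well expressed in the other, where a 0 in a table without counts can be a failed estimate. Among 11225 tested protein-coding genes, 70 were listed at 0 in both untreated HCC827 libraries with at least 1 FPKM in both HCC4006 libraries, and 13 the other way round. The untreated HCC827 libraries held more zeros in general, with 566 and 802 of all tested genes at 0, against 480 and 432 in HCC4006. Of the 70, 30 were also at 0 in both dormant HCC827 libraries, and of the 13, 8 were at 0 in dormant HCC4006. PYCARD, the adaptor of inflammasomes, stood at 39.6 and 49.5 FPKM in untreated HCC4006 and 76.5 and 17.8 in dormant HCC4006, and at 0 in all 4 HCC827 libraries. SNURF and SNRPN, which are transcribed from 1 imprinted locus on chromosome 15 and share sequence, so that reads between them may be divided uncertainly, were at 46.1 and 59.4 FPKM and at 6.59 and 6.66 in untreated HCC4006, and at 0 in all 4 HCC827 libraries. In the other direction, SPESP1, a sperm equatorial protein gene, was at 8.89 and 9.59 FPKM in untreated HCC827, and FGB, a fibrinogen chain gene, at 7.08 and 4.84, and both were at 0 in all 4 HCC4006 libraries.

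Metallothioneins, small proteins that bind zinc and copper, were called in part. MT1E was at 211 and 145 FPKM in untreated HCC4006 and 0.03 and 0.24 in HCC827 (7.28 ± 0.47, adjusted p = 4.25e-05), and MT1G at 16.8 and 13 against 0 and 0. MT2A was at 1850.3 and 1223 FPKM against 783 and 1249 and was not called (adjusted p = 0.696). Metallothionein genes are near-identical copies, so their division of reads is uncertain.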
